A study of Homo sapiens with 16 samples.

Results

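K562 is an established human leukaemia cell line that carries erythroid and early myeloid features. Phorbol 12-myristate 13-acetate (PMA) is a plant-derived diester that stands in for diacylglycerol, the lipid messenger that activates protein kinase C. The comparison described here sets K562 cells held in 25 nM PMA for 24 h against the untreated cells of the same series at 0 h. It uses 4 of the 16 libraries of the series, 2 at 24 h and 2 at 0 h, which were chosen by their labels alone. The other 12 libraries cover shorter and longer times of the same treatment. They share the estimate of the spread in the fit, and the 6 h and 48 h groups also serve below to place the 24 h values.

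Both groups had the genotype labelled WT, and both grew in RPMI medium with 10% serum. The changes of medium described, after 24 h and again after 48 h of treatment, belong to the series as a whole. The 0 h cells had no treatment time, and the 48 h change lies beyond both groups. The labels name no culture that was kept for 24 h without PMA. Time in culture and PMA therefore cannot be told apart, and each difference below is between 24 h and 0 h as labelled. The labels also do not say whether the replicates were separate cultures, so the p-values measure the spread between these libraries, which may be technical.

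Diacylglycerol and phorbol esters bind the C1 domain, a zinc-holding module found in protein kinase C, protein kinase D, the RASGRP activators of RAS and a few other proteins. Through these proteins they switch on the ERK kinases, which in turn drive transcription of immediate-early genes such as EGR1 and FOS. In K562 cells this treatment is known for adhesion to the dish, arrest of division, loss of haemoglobin-producing character and gain of surface proteins of megakaryocytes, the bone marrow cells that shed platelets.

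RNA was sequenced after depletion of ribosomal RNA, and the deposited reads per transcript were summed per gene. The 0 h libraries held 29562385 and 29241520 estimated reads, and the 24 h libraries held 33073509 and 54056289. Levels are given as CPM, read counts scaled to a common library size after correction for library composition, so they compare libraries for 1 gene and not genes of different length. The 0 h replicate 2 library stood apart. Reads assigned to PLCG2 made up 3.20% of it, against 1.52 to 1.74% in the other 3 libraries. The gap between its transcripts' full and effective lengths, which follows fragment size, was the smallest, at 199.4 bases against 213 to 233.6. Across 9980 well-read genes, the difference between the 0 h replicates correlated with GC content, the share of G and C bases, at r = -0.738. For the 24 h replicates r was -0.328, and for the 24 h to 0 h change -0.0721. A count without 0 h replicate 2, or without another library, is given where that ends a call or moves the count by over 1.5 times. Genes known for high levels in K562 were present in all 4 libraries. PRAME, a tumour antigen, had 307.7 and 361 CPM at 0 h and 217 and 203 CPM at 24 h, and the fusion partners BCR and ABL1 lay between 189.7 and 327 CPM.

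Of 17559 genes tested with edgeR, 10241 (58.3%) differed between 24 h and 0 h at an adjusted p under 0.05. Of these, 5571 genes (31.7% of those tested) were higher at 24 h and 4670 (26.6%) were lower. At least a 2-fold change was seen in 2662 genes on the higher side (15.2%) and 2066 on the lower side (11.8%). Large changes leaned upward, since 628 genes rose and 110 fell by 16-fold or more. The called rises included 240 genes with no read at 0 h, and the called falls 37 with none at 24 h. The size of such folds is not fixed by the reads. Among genes with at least 10 reads in each library of 0 h and 24 h, 51.8% of calls were higher. The median log2 fold change over all genes was -0.01. Scaling each library to its total count instead lowered that median to -0.26 and left 4165 genes higher and 6610 lower, or 38.7% of calls on the higher side against 54.4%. Without 0 h replicate 2, 9091 genes were called, and 7153 genes passed in each of the 4 fits that left out 1 of the libraries. In RNA from whole cultures, fewer cells that express a gene and less of its RNA per cell cannot be told apart. The gene lists below were chosen with earlier results of these data known. Their counts describe the listed genes, beside 31.7% higher and 26.6% lower over all genes, and are not tests.

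**Figure D1:**
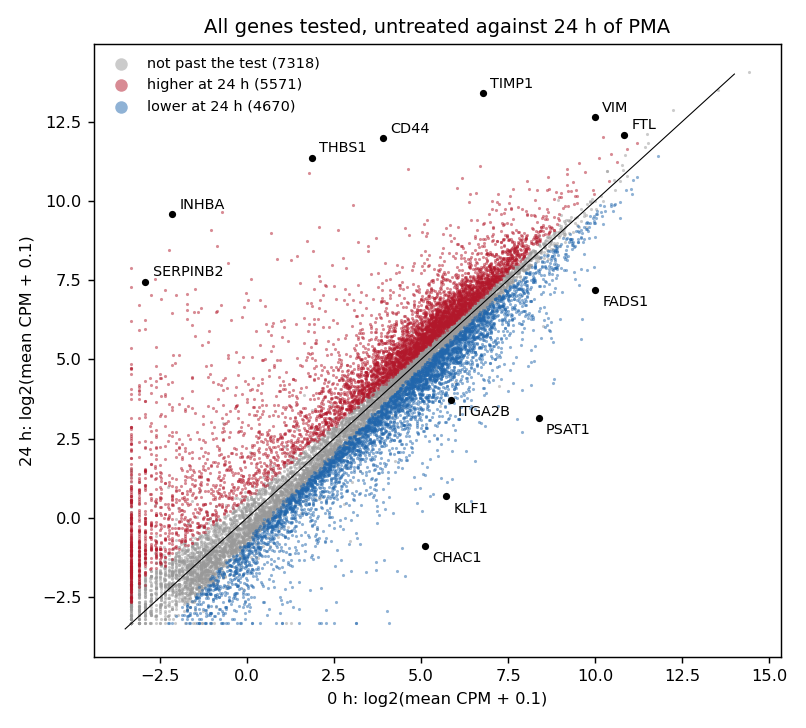
Mean level of each of the 17559 genes tested at 0 h (horizontal axis) and 24 h (vertical axis), as log2 of the mean CPM of 2 libraries plus 0.1, with genes higher at 24 h in red, lower in blue and not past the test in grey. TIMP1, CD44, THBS1 and INHBA lie far above the line of equal levels, and KLF1, CHAC1 and PSAT1 lie far below it.

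The genes with the largest rises had few or no reads before treatment. INHBA (chr7:41667168-41705834, GRCh38), which encodes the subunit of activin A, had 0.184 and 0.0644 CPM at 0 h and 754 and 785 CPM at 24 h. Its log2 fold change was 12.54 (SE 0.27, adjusted p = 3.44e-13), and the groups did not come near each other. COL5A3, a fibrillar collagen chain, had 0 and 0.0322 CPM at 0 h and 105 and 105 CPM at 24 h, a ratio of 6671 with a 95% counting interval of 1197 to 263487. APCDD1L, CORO2B, TAGLN3 and PCSK1 had no read in either 0 h library. At 24 h, APCDD1L stood at 65.3 and 81.6 CPM and was at least 778-fold higher, counted against a floor of 3 reads per library. CORO2B, a coronin that binds actin, reached 39.1 and 42.6 CPM and was at least 433-fold higher. TAGLN3, a calponin-family protein, was at least 273-fold higher, and PCSK1, a convertase that cuts prohormones, at least 244-fold higher. PCSK1 was still climbing, with a log2 difference of 1.85 between 48 h and 24 h (adjusted p = 1.09e-05).

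Several genes that met the same rule carry uncertain values. GAGE12G and GAGE2E, cancer-testis antigens, belong to a cluster of near-identical copies among which reads are divided by estimate, and GAGE2E passed in only 1 of the 4 fits without a library. FAM83H and LY6E were listed at 0 in 1 library and with many reads in its replicate at some time of the series. CCL4, a chemokine with close copies, had no read at 0 h and 12.5 and 21 CPM at 24 h. SERPINB2 overlaps SERPINB10, and FOXH1 overlaps KIFC2, and the sources used here do not say whether strand was used. The same limit holds for genes named below that overlap a neighbour, among them ALAS2, HBE1, HBG2, ITGB3, TUBB1, THBS1, FADS1, SREBF1, DDIT3, CDK4, CCND1, CCND2, MCM7, TYMS, MMP1, PLAU, TGFB1, FTH1 and ITGA1.

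The largest falls came from genes of moderate level. JDP2, a repressor that dimerises with JUN, went from 13.1 and 19.4 CPM to 0 and 0.0623 CPM. The ratio of 0 h to 24 h was 429, with a counting interval of 147 to 2080.3. MS4A3, a membrane protein of granulocyte and monocyte precursors, had 276 and 201 CPM at 0 h and 6.04 and 6.97 CPM at 24 h, a 36.7-fold fall in the mean. Its relative MS4A4A fell 51.7-fold from 22 and 21.2 CPM. MS4A3 kept falling, with a log2 fold change of -2.31 from 24 h to 48 h (adjusted p = 2.51e-05). INHBE, another inhibin beta subunit, moved opposite to INHBA, from 77.9 and 94.9 CPM to 1.29 and 1.43 CPM (log2 fold change -5.97, SE 0.20, adjusted p = 2.13e-11). KLHDC7B, SCN4A, HEPACAM2 and FOXH1 fell too, with log2 fold changes of -5.42 to -6.50. CHAC1, PSAT1 and KLF1 also belonged to the 12 largest falls and are described with their groups.

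Measured by reads gained, TIMP1 led all protein-coding genes. TIMP1 (chrX:47582313-47586789, GRCh38) encodes a secreted inhibitor of matrix metalloproteinases, and had 81 and 137 CPM at 0 h and 9612 and 11952 CPM at 24 h (log2 fold change 6.63, SE 0.26, adjusted p = 8.79e-11). On the TPM scale, which allows for transcript length, it rose from 279.6 to 26806 and from place 403 to place 1 among protein-coding genes tested. VIM, the intermediate filament vimentin, had 966 and 1075 CPM at 0 h and 6006 and 6687 CPM at 24 h, and CD44, the hyaluronan receptor, had 14.3 and 15.2 CPM at 0 h and 3879 and 4222 CPM at 24 h. CD44 moved from place 7963 to place 22 in TPM. FLNA, a crosslinker of actin, gained 3.48-fold, THBS1 (thrombospondin 1) 746-fold, and FTL, the light chain of ferritin, 2.38-fold. All 6 had both 24 h libraries above both 0 h libraries.

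The 6 largest losses in CPM were those of FADS1, SCD, RPL13A, RPS2, HNRNPA1 and EEF2. FADS1, a fatty acid desaturase, had 1029 and 1009.6 CPM at 0 h and 142 and 151 CPM at 24 h, and SCD, which makes oleic acid, had 1002 and 999 CPM at 0 h and 233 and 247 CPM at 24 h. RPL13A fell 2.37-fold, RPS2 1.8-fold, HNRNPA1 1.61-fold and the elongation factor EEF2 1.32-fold. Ribosomal protein genes and HNRNPA1 have many processed copies that can share their reads, so these values are uncertain. EEF2 was not called without 0 h replicate 2 (log2 fold change -0.26, adjusted p = 0.141) or without 24 h replicate 1 (adjusted p = 0.0971).

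The megakaryocyte and platelet genes split rather than rising together. Of 37 listed genes, 31 were tested, and 19 rose, 7 fell and 5 did not pass, with a median log2 fold change of 0.77. GP1BA, GP9, PF4, SELP and F13A1, among them defining markers of the mature cell, stayed under the low-count filter. Receptors for fibrinogen and collagen were among the rises. ITGB3 (chr17:47253846-47311816), the beta chain of the platelet fibrinogen receptor, had 1.75 and 1.29 CPM at 0 h and 496 and 508 CPM at 24 h, a 331-fold rise (SE 0.16 on a log2 change of 8.36, adjusted p = 1.64e-13). ITGA2, the alpha chain of the collagen receptor, had 1.23 and 1.16 CPM at 0 h and 118 and 116 CPM at 24 h. CD9, a tetraspanin of platelets, had 0.338 and 0.354 CPM at 0 h and 25.2 and 29.99 CPM at 24 h, and the thrombin receptor F2R had 28.8 and 26.9 CPM at 0 h and 108 and 121 CPM at 24 h. In each of these genes the 24 h replicates lay close together and far from the 0 h pair.

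THBS1, stored in platelet alpha granules, had 3.53 and 3.54 CPM at 0 h and 2654 and 2618 CPM at 24 h and the largest log2 fold change of the list, 9.54 (SE 0.23). SRGN, the granule proteoglycan serglycin, rose 3.32-fold to 343 and 312 CPM. ERG, an ETS factor of blood stem cells and megakaryocytes, had 2 reads in all at 0 h and 11.6 and 14.2 CPM at 24 h, a ratio of 411 with a counting interval of 114 to 3390.5. VWF and MMRN1, both adhesive proteins of platelet granules, had no read at 0 h, and at 24 h reached only 1.37 and 0.19 CPM on average, at least 14.6-fold and 2.02-fold higher.

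Further platelet genes rose from low levels. ITGA6, the laminin receptor chain, had 2 reads at 0 h and 1.97 and 1.85 CPM at 24 h. SPARC, a matrix protein of alpha granules, rose 2.29-fold, PEAR1, a platelet receptor, 2.13-fold, MYL9, a myosin light chain, 2.14-fold and P2RX1, the ATP-gated channel, 1.47-fold. ITGA6 and SPARC were higher again at 48 h, by 2.55 and 1.26 on the log2 scale (adjusted p = 6.93e-06 and 0.000258).

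The 7 members that fell included the alpha chain that pairs with ITGB3. ITGA2B (chr17:44372180-44389505), known as CD41, had 52.6 and 62.9 CPM at 0 h and 13.2 and 12.9 CPM at 24 h, a 4.41-fold fall (log2 fold change -2.14, SE 0.11, adjusted p = 1.96e-09). NFE2, a transcription factor needed for platelet release, had 78.9 and 99.1 CPM at 0 h and 17.1 and 20.8 CPM at 24 h. RUNX1, the core blood transcription factor, had 253 and 263 CPM at 0 h and 161 and 162 CPM at 24 h. TUBB1, P2RY1, CD36 and PLEK fell as well, with log2 fold changes of -0.77 to -1.62. The ITGA2B fall was a trough. Its mean was 41 CPM at 6 h, 13.1 CPM at 24 h and 33.6 CPM at 48 h, and both steps passed the test (24 h against 6 h, log2 fold change -1.65, adjusted p = 5.74e-08, and 48 h against 24 h, 1.36, adjusted p = 4.55e-06). TUBB1, the platelet beta-tubulin, likewise stood 2.97 higher on the log2 scale at 48 h than at 24 h (adjusted p = 1.86e-07). FLI1, an ETS factor of the lineage, did not pass at 24 h, at a mean of 0.0427 CPM.

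**Figure D2:**
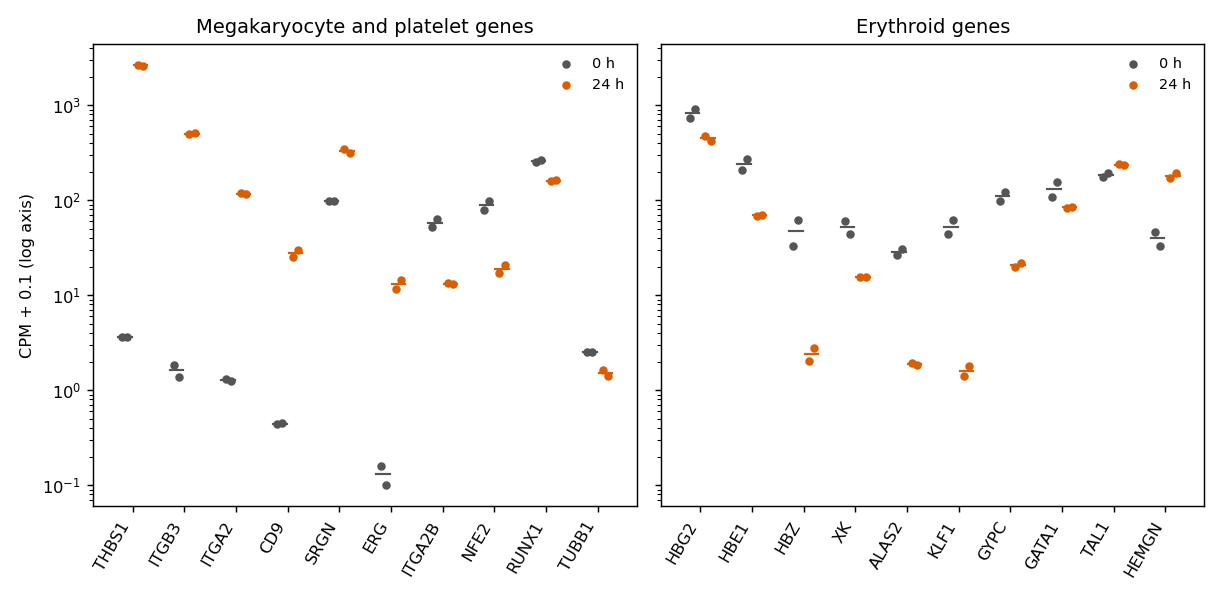
CPM plus 0.1 on a log axis for 10 megakaryocyte and platelet genes (left) and 10 erythroid genes (right), with 1 point per library, grey at 0 h and orange at 24 h, and a short line at each mean. THBS1, ITGB3 and ITGA2 rise far above their 0 h points, ITGA2B and NFE2 fall, and every erythroid gene shown is lower at 24 h except TAL1 and HEMGN.

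Erythroid genes fell as a group. All 36 listed genes were tested, of which 28 fell, 5 rose and 3 did not pass, and the median log2 fold change was -1.14. Without 0 h replicate 2 the counts were 26 and 5. KLF1 (chr19:12884422-12887199), the activator of adult globin genes, had 43.8 and 61.4 CPM at 0 h and 1.32 and 1.68 CPM at 24 h, a 35-fold fall (log2 fold change -5.11, SE 0.19, adjusted p = 5.79e-11). ALAS2, the first enzyme of haem synthesis in red cells, had 26.1 and 30.7 CPM at 0 h and 1.84 and 1.74 CPM at 24 h. The groups were well apart in both genes.

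The globins fell unequally. HBZ, the embryonic alpha-like chain, had 33.3 and 61.8 CPM at 0 h and 1.94 and 2.68 CPM at 24 h, and HBE1, the embryonic beta-like chain, had 210.5 and 271 CPM at 0 h and 67.8 and 70.3 CPM at 24 h. HBA1 fell 11.2-fold and HBA2 11.8-fold, although these are near-identical copies whose reads are divided by estimate. The fetal chains HBG2 and HBG1, also near-identical, had the smallest falls of the globins that passed, 1.83-fold and 1.63-fold. HBG2 remained the most abundant, at a mean TPM of 1665 at 24 h against 3148 at 0 h. On the same TPM scale HBZ went from 125 to 5.86.

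Red cell surface and skeleton genes behaved alike in direction. AHSP, the chaperone of free alpha globin, and EPB42, a skeleton protein, fell from low levels, with log2 fold changes of -5.00 and -4.32, and SLC4A1, the anion exchanger, fell 2.21-fold. TFRC, the transferrin receptor, fell only 1.52-fold. GATA1, the master erythroid and megakaryocyte factor, had 107 and 155 CPM at 0 h and 83 and 85.6 CPM at 24 h (log2 fold change -0.64, adjusted p = 0.00297), and its call was lost without 0 h replicate 2 (-0.35, adjusted p = 0.0534). HEMGN, a nuclear protein of erythroid cells, rose against the group, with 45.9 and 33.2 CPM at 0 h and 170.0 and 192 CPM at 24 h. TAL1, LMO2 and NFE2L3 rose by 0.37 to 0.51 on the log2 scale, and TSPO2 rose from no read to a mean of 0.248 CPM. TAL1 and NFE2L3 lost their calls under total-count scaling (0.12 and 0.18), and NFE2L3 also without 0 h or 24 h replicate 2 (adjusted p = 0.107 and 0.214).

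Further genes of the red cell membrane followed. GYPC, or glycophorin C, had 98.6 and 121 CPM at 0 h and 19.6 and 21.6 CPM at 24 h, a 5.33-fold fall, and GYPB 14.1 and 10.5 CPM at 0 h and 1.42 and 1.51 CPM at 24 h. XK and KEL, which form 1 complex at the membrane, fell 3.38-fold and 2.19-fold, and RHAG, the Rh-associated glycoprotein, fell 2.38-fold. SPTB, the erythroid beta-spectrin, had 49.5 and 57 CPM at 0 h and 17.4 and 18.2 CPM at 24 h. ANK1 and EPB41, which anchor the spectrin net, had the smallest falls of these, 1.29-fold and 1.35-fold, and the ANK1 call was lost without 0 h replicate 2 (adjusted p = 0.0739). FECH, which inserts iron into haem, fell 2.58-fold. SPTB and KEL had risen again by 48 h, by 1.25 and 1.41 on the log2 scale (adjusted p = 1.42e-05 and 2.88e-05).

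The promoters of 2 erythroid genes that fell are shown because GATA factors bind the motif marked in capitals, AGATAA on either strand (TTATCT as written on the other). They run from 250 bases before to 50 bases after the RefSeq start on GRCh38.p14, written in the direction of the gene. ALAS2 lies on chrX:55030928-55031227, minus strand, and EPB42 on chr15:43220969-43221268, minus strand.
ALAS2: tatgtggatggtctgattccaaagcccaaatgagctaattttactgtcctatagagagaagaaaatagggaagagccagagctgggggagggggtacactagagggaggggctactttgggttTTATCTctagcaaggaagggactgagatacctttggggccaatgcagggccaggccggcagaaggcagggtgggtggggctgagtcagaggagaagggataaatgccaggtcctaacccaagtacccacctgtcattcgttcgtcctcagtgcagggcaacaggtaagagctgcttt
EPB42: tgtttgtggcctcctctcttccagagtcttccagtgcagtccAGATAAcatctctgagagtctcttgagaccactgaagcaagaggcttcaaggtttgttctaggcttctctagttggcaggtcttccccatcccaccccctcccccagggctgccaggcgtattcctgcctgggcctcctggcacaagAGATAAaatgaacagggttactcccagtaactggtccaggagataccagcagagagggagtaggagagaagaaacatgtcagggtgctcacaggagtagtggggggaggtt
Of 22 erythroid genes tested that had a promoter in the table, 10 (45.5%) held AGATAA, against 10.5% of all 27305 promoters. Those with a match included TAL1 and TSPO2, which rose, beside genes that fell. A match describes these letters and is not a measured binding site. EPB42 held 2 matches and ALAS2 held 1, 127 bases before its start.

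Immediate-early genes and the brakes on ERK signalling stood high a full day after PMA was added. Of 38 genes, all tested, 35 rose, 1 fell and 2 did not pass, with a median log2 fold change of 2.76, or 2.50 when EGR4 and DUSP2, unread at 0 h, were set to their lower bounds. EGR1, the zinc-finger factor that serum and phorbol esters induce, had 118 and 175 CPM at 0 h and 1075 and 1302 CPM at 24 h (log2 fold change 3.02, SE 0.20, adjusted p = 2.09e-08). EGR3 had 0.184 and 0.225 CPM at 0 h and 124 and 146 CPM at 24 h, and EGR2 0.0921 and 0.161 CPM at 0 h and 27.1 and 29.3 CPM at 24 h. FOSB, a partner of JUN in the AP-1 dimer, rose 46.6-fold, and the orphan receptor NR4A1 34.8-fold. Feedback genes were among the largest rises. DUSP5, a nuclear phosphatase that acts on ERK, had 3.84 and 4.28 CPM at 0 h and 574 and 584 CPM at 24 h. PHLDA1 rose 114-fold, and SPRY4, a Sprouty inhibitor of receptor signalling, rose 8.5-fold.

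These levels were lower than at 6 h for most of the genes named. Between 6 h and 24 h, the log2 fold change was -1.56 for EGR1, -2.65 for EGR2 and -2.30 for EGR3 (adjusted p = 1.12e-05, 4.92e-10 and 6.89e-09). DUSP5 went the other way and stood 0.75 higher on the log2 scale at 24 h than at 6 h (adjusted p = 0.000255). ATF3, a stress-induced factor of the same list, was below its 0 h level, with 67.4 and 87.7 CPM at 0 h and 24.1 and 27.6 CPM at 24 h. MYC had 136 and 161 CPM at 0 h and 94.4 and 128 CPM at 24 h and did not pass (log2 fold change -0.42, adjusted p = 0.0707), though it did in 7 of the other fits, such as total-count scaling (-0.67, adjusted p = 0.00568) and the fit without 24 h replicate 2 (-0.68, adjusted p = 0.0193). JUND had a log2 fold change of -0.15 (adjusted p = 0.58).

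The receptors of phorbol esters themselves moved both ways, as did all genes tested, of which 31.7% rose and 26.6% fell. Of 24 genes for C1-domain proteins and their substrates, 8 rose and 10 fell. The median log2 fold change was 0.12, and it turned to -0.13 under total-count scaling and to -0.10 without 24 h replicate 2. Among the classical kinases, which need calcium as well as diacylglycerol, PRKCA had 98.2 and 98.9 CPM at 0 h and 206 and 202 CPM at 24 h, while PRKCB, the more abundant transcript by CPM, had 564 and 577 CPM at 0 h and 319 and 323 CPM at 24 h. Among the kinases that need diacylglycerol but not calcium, PRKCE rose 7.49-fold and PRKCD 2.07-fold, and PRKCH and PRKCQ fell 2.17-fold and 1.54-fold. RASGRP3, which loads RAS with GTP, had 26 and 29.8 CPM at 0 h and 108 and 108 CPM at 24 h, whereas RASGRP1, RASGRP2 and RASGRP4 fell (log2 fold changes of -1.11 to -2.64). MARCKS, a major membrane substrate of protein kinase C, had 15.5 and 10.7 CPM at 0 h and 0.839 and 0.768 CPM at 24 h, a 16.3-fold fall. PRKD1, UNC13D and CHN2 also fell, and PRKD2 rose by 0.75 on the log2 scale. With counts scaled for transcript length, PRKD2 (0.42, adjusted p = 0.191) and CHN2 (-0.26, adjusted p = 0.459) were not called. The CHN2 call was lost without 0 h or 24 h replicate 2 (adjusted p = 0.156 and 0.163), and that of RASGRP1 without 24 h replicate 2 (0.054).

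**Figure D3:**
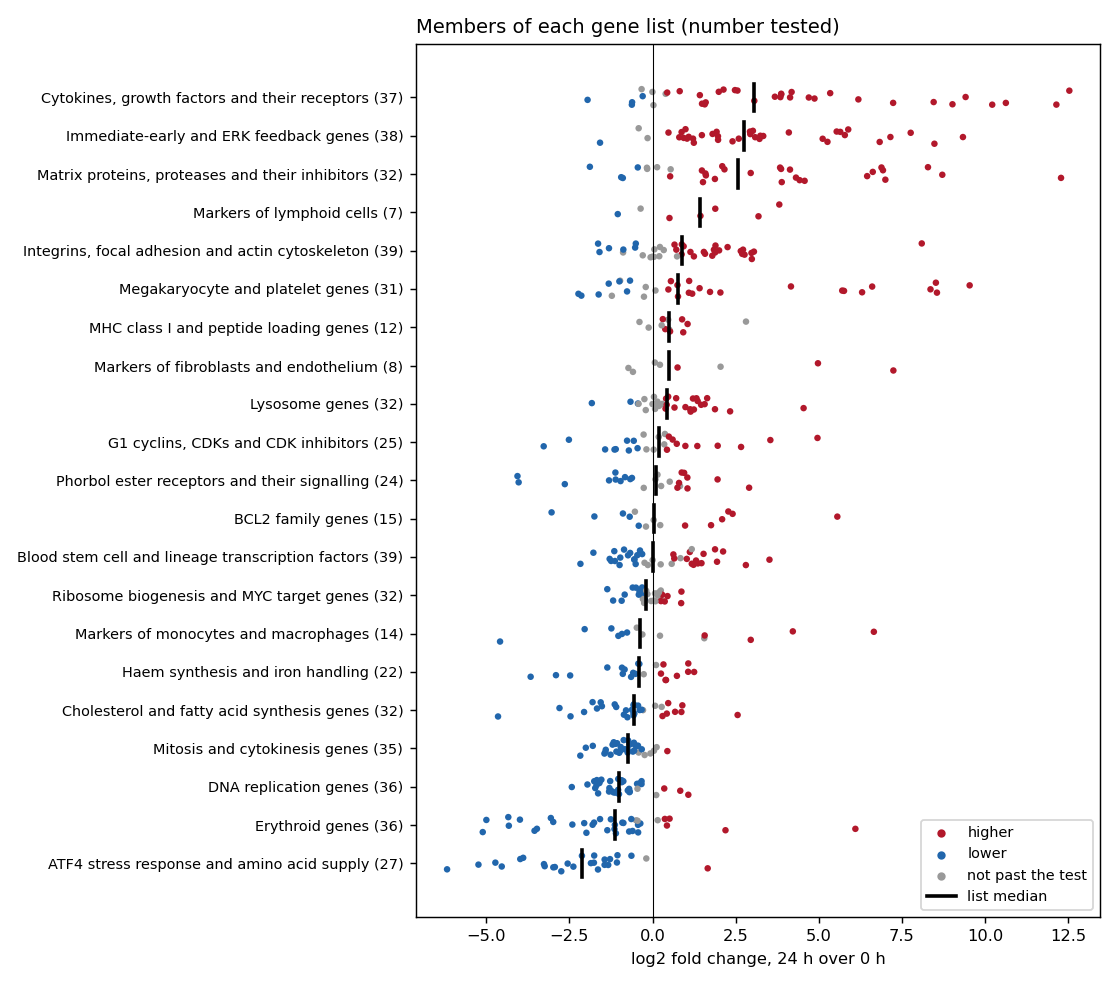
Log2 fold change, 24 h over 0 h, of each tested member of 21 gene lists (rows, with the number tested), ordered by the list median, which is the black bar. Red points passed the test as higher, blue points as lower and grey points did not pass. The cytokine list lies furthest to the right, with a median of 3.06 that includes 3 genes unread at 0 h, and the ATF4 list furthest to the left, with a median of -2.12.

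Genes of the extracellular matrix and its proteases rose widely. Of 35 listed, 32 were tested, and 24 rose, 4 fell and 4 did not pass, with a median log2 fold change of 2.56. Without replicate 2 of either group, 2 members were called lower. Genes of the plasminogen system were among the rises. SERPINB2, an inhibitor of plasminogen activators, had 0 and 0.0644 CPM at 0 h and 179 and 172 CPM at 24 h. PLAUR, the urokinase receptor, had 9.73 and 13.6 CPM at 0 h and 195 and 215 CPM at 24 h, and PLAU, urokinase itself, had 11 and 12.4 CPM at 0 h and 51.1 and 49.1 CPM at 24 h. In all 3 genes the groups were separate. The collagenase MMP1 had 0.46 and 0.0966 CPM at 0 h and 83.1 and 95.5 CPM at 24 h. MMP10 and MMP9 had 3 and 4 reads at 0 h and reached 21.4 and 5.83 CPM, and their inhibitor TIMP3 rose 119-fold beside TIMP1. The laminin chains LAMC1 and LAMB3 rose 129.5-fold and 19.9-fold. Against the list, the basement membrane proteoglycan HSPG2 fell, with 600.4 and 783 CPM at 0 h and 189 and 186 CPM at 24 h, and fibronectin (FN1) fell 1.92-fold. ADAMTS1 and MMP14 also fell (log2 fold changes of -0.89 and -0.44). MMP14 was called in none of the 4 fits without a library, and ADAMTS1 was not called without 0 h replicate 2 or 24 h replicate 2 (adjusted p = 0.0925 and 0.152).

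The promoters of PLAUR and MMP10 are shown because each holds the AP-1 motif TGANTCA, the letters bound by FOS and JUN dimers, in capitals. PLAUR lies on chr19:43670120-43670419, minus strand, and MMP10 on chr11:102780579-102780878, minus strand (GRCh38.p14, RefSeq).
PLAUR: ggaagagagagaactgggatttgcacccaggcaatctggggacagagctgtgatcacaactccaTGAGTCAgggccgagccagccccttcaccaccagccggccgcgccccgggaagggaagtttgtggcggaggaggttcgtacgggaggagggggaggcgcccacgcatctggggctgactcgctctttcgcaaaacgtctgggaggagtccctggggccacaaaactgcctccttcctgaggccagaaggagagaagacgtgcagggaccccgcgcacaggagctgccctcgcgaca
MMP10: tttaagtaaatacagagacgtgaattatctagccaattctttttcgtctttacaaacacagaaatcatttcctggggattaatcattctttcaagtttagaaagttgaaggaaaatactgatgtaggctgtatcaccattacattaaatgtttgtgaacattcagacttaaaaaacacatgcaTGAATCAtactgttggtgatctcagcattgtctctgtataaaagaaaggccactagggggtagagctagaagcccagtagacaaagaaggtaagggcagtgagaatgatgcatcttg
The motif, which reads the same class of letters on both strands, was in 3 of 20 promoters of the list (MMP10, PLAUR and SERPINB2, 15%) and in 7.8% of all promoters. It lay 186 bases before the PLAUR start and 67 bases before the MMP10 start. The motif of EGR factors, GCGNGGGCG, was in 7 of the 20 promoters (35%), PLAUR among them, and in 9.3% of all promoters. Those with a match included FN1 and HSPG2, which fell. The share was not particular to this list or to rising genes. It was 28.6% in the adhesion and actin list and 29.4% in the haem and iron list, where falls outnumbered rises, but 4.5% in the erythroid list.

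Adhesion and actin genes rose more often than they fell. Of 39 genes, 23 rose, 6 fell and 10 did not pass, with a median log2 fold change of 0.88. CD44 had the largest change, a log2 fold change of 8.10 (SE 0.14). ITGB1, the common beta chain of matrix integrins, had 361 and 281 CPM at 0 h and 1236 and 1337 CPM at 24 h, and its fibronectin-binding partner ITGA5 had 149 and 183 CPM at 0 h and 787 and 799 CPM at 24 h. ITGAV had 53.4 and 38.8 CPM at 0 h and 312 and 287 CPM at 24 h, and ITGB5 15.1 and 16.8 CPM at 0 h and 107 and 110.4 CPM at 24 h. The focal adhesion proteins PXN (paxillin) and ZYX (zyxin) rose 6.3-fold and 3.72-fold, and talin (TLN1), vinculin (VCL), ACTN1 and MYH9 rose by 1.14 to 1.89 on the log2 scale. FLNA had 1104 and 1291 CPM at 0 h and 4140.4 and 4189 CPM at 24 h and the highest mean of the list over the 4 libraries by CPM. ACTB rose 1.64-fold. ITGA3, a laminin-binding chain, had 5.25 and 6.76 CPM at 0 h and 47.3 and 52.1 CPM at 24 h, and CAV1, the caveolar coat protein, had 0.276 and 0.322 CPM at 0 h and 2.29 and 2.49 CPM at 24 h after a higher mean of 11.5 CPM at 6 h. ACTG1 did not pass, with a log2 fold change of 0.05, and its log2 fold change from 6 h to 24 h was -2.58 (adjusted p = 7.23e-09). Members that fell were CNN2, ITGA4, TES, FERMT2, ITGA1 and MYH10 (log2 fold changes of -0.50 to -1.64), and the ITGA1 call held in 1 of the 4 fits without a library.

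Secreted factors and their receptors mostly rose, with a median log2 fold change of 3.06. With the 3 genes unread at 0 h (CCL3, CCL4 and CXCR4) at their lower bounds the median was 2.56, level with that of the matrix list. Of 40 listed, 37 were tested, 29 rose, 4 fell and 4 did not pass, and 2 were called lower without replicate 2 of either group. CCL2, the monocyte attractant MCP-1, had 0.491 and 0.515 CPM at 0 h and 741 and 861 CPM at 24 h (log2 fold change 10.63, SE 0.21, adjusted p = 2.03e-13). LIF, an interleukin-6 family cytokine, had 0.276 and 0.129 CPM at 0 h and 106 and 110.4 CPM at 24 h, and its relative IL11 had 3.04 and 4.34 CPM at 0 h and 143 and 157 CPM at 24 h. PDGFB and PDGFA, platelet-derived growth factor chains, had means of 89.6 and 133 CPM at 24 h against 0.249 and 7.54 CPM at 0 h. TGFB1 had 103 and 163 CPM at 0 h and 489 and 677 CPM at 24 h. Each of these genes had both 24 h libraries above both 0 h libraries.

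Among growth factors of the EGF family, HBEGF rose 14.6-fold and AREG 14.6-fold, while EREG fell (log2 fold change -0.30), a call that held in 1 of the 4 fits without a library. VEGFA, already abundant at 0 h, rose 1.36-fold, a call lost under total-count scaling (log2 fold change 0.20, adjusted p = 0.0661) and with the 4 libraries alone (0.0579). Among receptors of the list, IL6R had 2.55 and 3.48 CPM at 0 h and 76.8 and 79.8 CPM at 24 h, KIT, the stem cell factor receptor, had 0.89 and 0.258 CPM at 0 h and 16.4 and 17.7 CPM at 24 h, and TNFRSF12A and IL2RG rose 14.4-fold and 12.8-fold, while the TGF-beta receptor TGFBR1 did not pass (adjusted p = 0.996). The neutrophil attractants divided. CXCL8 had 6.08 and 4.73 CPM at 0 h and 43.4 and 47 CPM at 24 h, while CXCL2 had 11.3 and 12.9 CPM at 0 h and 3.03 and 3.2 CPM at 24 h and CXCL3 fell 1.53-fold. All 3 were far lower than at 6 h, with log2 fold changes of -5.01, -5.47 and -6.44. CCL5 fell (log2 fold change -0.62), a call that also held in 1 of the 4 fits without a library.

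Genes for DNA replication fell. All 36 were tested, 31 fell, 3 rose and 2 did not pass, with a median log2 fold change of -1.02. CDT1, which loads the MCM helicase at origins, had 197 and 269.6 CPM at 0 h and 39.2 and 47.4 CPM at 24 h, a 5.39-fold fall (SE 0.19 on a log2 change of -2.43, adjusted p = 1.03e-07). MCM7, a helicase subunit and the most abundant member by CPM, had 423 and 505 CPM at 0 h and 154 and 153 CPM at 24 h. The nucleotide enzymes TYMS and TK1 fell 3.3-fold and 3.89-fold, and the sliding clamp PCNA fell 1.9-fold. POLD1, the catalytic subunit of DNA polymerase delta, had 151 and 193 CPM at 0 h and 50.2 and 51.7 CPM at 24 h. Within the MCM helicase the falls were unequal, at 3.03-fold for MCM2, 1.68-fold for MCM4 and 1.34-fold for MCM6. MCM4 was not called with counts scaled for transcript length (log2 fold change -0.47, adjusted p = 0.155). GINS3, RRM2 and RPA2 rose, by 1.08, 0.83 and 0.35 on the log2 scale. RRM2, the small subunit of ribonucleotide reductase, had a log2 fold change of -0.037 when counts were scaled for transcript length, and GINS3 one of 0.17. RPA2 was not called without 24 h replicate 2 (adjusted p = 0.0905).

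The promoters of 2 of these genes are shown because they hold the E2F motif TTNGCGCG, the letters at which E2F factors bind S-phase genes, in capitals. CDT1 lies on chr16:88803539-88803838, plus strand, and MCM7 on chr7:100101348-100101647, minus strand (GRCh38.p14, RefSeq).
CDT1: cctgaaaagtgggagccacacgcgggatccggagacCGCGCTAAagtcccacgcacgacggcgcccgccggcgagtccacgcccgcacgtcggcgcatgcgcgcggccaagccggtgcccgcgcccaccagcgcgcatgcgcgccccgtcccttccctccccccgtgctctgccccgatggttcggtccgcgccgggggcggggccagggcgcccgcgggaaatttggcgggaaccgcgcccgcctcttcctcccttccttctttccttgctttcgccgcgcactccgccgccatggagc
MCM7: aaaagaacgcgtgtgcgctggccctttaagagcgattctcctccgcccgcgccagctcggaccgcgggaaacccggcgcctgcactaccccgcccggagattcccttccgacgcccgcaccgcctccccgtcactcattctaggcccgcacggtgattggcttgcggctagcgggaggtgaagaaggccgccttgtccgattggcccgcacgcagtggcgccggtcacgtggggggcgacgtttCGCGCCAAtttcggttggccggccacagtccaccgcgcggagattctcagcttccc
The motif was in 11 of 31 promoters of the list (35.5%) and in 2.0% of all promoters, counting both strands. In MCM7 it lay 6 bases before the start.

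Mitotic genes fell as well. Of 35, 29 fell, 1 rose and 5 did not pass, with a median log2 fold change of -0.75. CENPA, the centromeric histone, had 37.1 and 38.6 CPM at 0 h and 8.2 and 8.57 CPM at 24 h, and AURKB and CCNA2 fell 4.02-fold and 3.48-fold. TOP2A, the most abundant member by CPM, had 666 and 526 CPM at 0 h and 309.6 and 305 CPM at 24 h. MKI67, the gene of the Ki-67 antigen, fell only 1.47-fold. AURKA rose 1.36-fold, and without 0 h replicate 1 a second member was called higher. At 48 h these transcripts were higher than at 24 h, by 0.75 for CENPA, 0.66 for TOP2A, 0.85 for MKI67 and, among replication genes, 0.96 for TYMS on the log2 scale (adjusted p = 0.000477, 0.00535, 0.000186 and 0.000172).

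The regulators of G1 moved both ways, as did all genes tested (31.7% higher and 26.6% lower). Of 25 genes, 10 rose, 9 fell and 6 did not pass, and the median was 0.19, or -0.063 under total-count scaling and 0.064 without 0 h replicate 2. CCND1 (cyclin D1) had 13.7 and 15.3 CPM at 0 h and 160.5 and 178 CPM at 24 h, while CCND2 (cyclin D2) had 273 and 263 CPM at 0 h and 27.1 and 28.4 CPM at 24 h. On the rising side, CDKN1A, which encodes the inhibitor p21, had 12.5 and 14.8 CPM at 0 h and 82 and 90.5 CPM at 24 h, and the antiproliferative gene BTG2 had 10.2 and 11.9 CPM at 0 h and 326 and 363 CPM at 24 h. GADD45A rose 2.54-fold and RB1, the retinoblastoma protein, 1.98-fold. CDK4, the partner of the D cyclins, had 154 and 185 CPM at 0 h and 63.2 and 63.1 CPM at 24 h. E2F2, E2F1, E2F8, CDK2, CDKN2C, RBL1 and CDKN1B fell, with log2 fold changes of -0.45 to -2.52, and the CDKN1B call was lost without 0 h replicate 1 (adjusted p = 0.0919). CDK6 was the most abundant member by CPM and did not pass (log2 fold change 0.04, SE 0.13), but was called lower with counts scaled for transcript length (-0.47, adjusted p = 0.0136). CCND1 was not at its peak, since its mean was 329 CPM at 48 h against 169 CPM at 24 h (adjusted p = 1.61e-05).

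The ATF4 programme, which supplies amino acids and answers their shortage, had the lowest list median, -2.12. Of 27 genes, 25 fell, 1 rose and 1 did not pass, and without 0 h replicate 2 the counts were the same. CHAC1 (chr15:40952962-40956519), an enzyme that breaks down glutathione, had 30.6 and 38.3 CPM at 0 h and 0.29 and 0.602 CPM at 24 h, a 77.2-fold fall (log2 fold change -6.18, SE 0.31, adjusted p = 1.18e-09). The serine pathway enzymes PSAT1 and PHGDH had 315 and 349.6 CPM at 0 h and 8.84 and 8.78 CPM at 24 h and, for PHGDH, 216 and 265 CPM at 0 h and 15.8 and 16.5 CPM at 24 h. ASNS, asparagine synthetase, had 459 and 417 CPM at 0 h and 18.9 and 18.9 CPM at 24 h, and the cystine transporter SLC7A11 had 343 and 229.9 CPM at 0 h and 33.1 and 26.6 CPM at 24 h. WARS1, which charges tryptophan to its tRNA, had 749.5 and 802 CPM at 0 h and 219.7 and 239.9 CPM at 24 h, and SLC7A5, the leucine transporter, had 591 and 761 CPM at 0 h and 202 and 231 CPM at 24 h. STC2 fell 26.8-fold, and TRIB3 4.36-fold. ATF4 itself had 309 and 355 CPM at 0 h and 86.6 and 96.8 CPM at 24 h (log2 fold change -1.85, SE 0.10). In each gene just named, both 24 h libraries lay below both 0 h libraries.

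DDIT3, which encodes CHOP, fell 1.55-fold, and CEBPB did not pass (log2 fold change -0.19, SE 0.19). SLC38A2, a transporter of small neutral amino acids, rose against the group, with 713 and 462 CPM at 0 h and 1935 and 1776 CPM at 24 h. ASNS, PHGDH and SLC7A11 were lower at 24 h than at 6 h. Between 6 h and 24 h the log2 fold changes were -4.21, -2.93 and -4.27 (adjusted p = 3.74e-10, 1.06e-09 and 1.54e-09), whereas CHAC1 was already at 0.447 CPM at 6 h.

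The promoters of CHAC1 and ASNS are shown because they hold the C/EBP-ATF motif TGATGNAA, the composite element that ATF4 binds with C/EBP proteins, on either strand, in capitals. CHAC1 lies on chr15:40953221-40953520, plus strand, and ASNS on chr7:97872359-97872658, minus strand (GRCh38.p14, RefSeq).
CHAC1: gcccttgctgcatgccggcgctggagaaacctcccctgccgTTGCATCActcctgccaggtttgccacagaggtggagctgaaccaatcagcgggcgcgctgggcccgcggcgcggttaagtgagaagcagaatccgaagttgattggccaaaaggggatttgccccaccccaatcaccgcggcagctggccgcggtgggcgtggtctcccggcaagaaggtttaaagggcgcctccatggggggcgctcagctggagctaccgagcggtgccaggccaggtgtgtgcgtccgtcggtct
ASNS: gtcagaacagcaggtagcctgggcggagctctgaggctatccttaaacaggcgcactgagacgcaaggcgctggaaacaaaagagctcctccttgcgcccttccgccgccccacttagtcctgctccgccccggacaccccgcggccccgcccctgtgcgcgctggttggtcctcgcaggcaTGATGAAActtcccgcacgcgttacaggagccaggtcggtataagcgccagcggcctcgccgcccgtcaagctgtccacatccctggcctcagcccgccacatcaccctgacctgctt
The motif was in 3 of 22 promoters of the list (ASNS, CHAC1 and SLC3A2, 13.6%) and in 3.7% of all promoters. It lay 209 bases before the CHAC1 start and 68 bases before the ASNS start.

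Genes of cholesterol and fatty acid synthesis mostly fell. Of 32, 22 fell, 7 rose and 3 did not pass, with a median log2 fold change of -0.57. FASN, fatty acid synthase, had 900.3 and 1159.7 CPM at 0 h and 452 and 484 CPM at 24 h, and LSS, which closes the sterol ring, had 103 and 120.5 CPM at 0 h and 19.98 and 20.5 CPM at 24 h. SREBF1, the regulator of lipid genes, fell 2.88-fold. SQLE, the squalene epoxidase that acts just before LSS, rose against the list, with 149.6 and 134 CPM at 0 h and 802 and 868 CPM at 24 h. MSMO1, STARD4, PMVK, NSDHL and SC5D rose by 0.30 to 0.90 on the log2 scale. SC5D was called in 1 of the 4 fits without a library, PMVK in 2, and NSDHL in all but the fit without 24 h replicate 2. Without that library 4 members were higher. FADS1 and SCD, described above, remained the members with the largest loss of reads.

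Iron and haem genes fell more often than they rose. Of 23 listed, 22 were tested, 12 fell, 8 rose and 2 did not pass (median -0.41). TFR2, the second transferrin receptor, had 90.3 and 112 CPM at 0 h and 8.29 and 7.64 CPM at 24 h. BLVRB, a biliverdin reductase, fell 7.49-fold, and SLC40A1, the iron exporter ferroportin, fell 5.58-fold. FTL had 1467 and 2184 CPM at 0 h and 4041 and 4654 CPM at 24 h, while FTH1, the heavy chain, had 998 and 1438 CPM at 0 h and 853 and 998 CPM at 24 h, a call lost without 0 h replicate 2 (log2 fold change -0.11, adjusted p = 0.528) or 24 h replicate 1 (adjusted p = 0.216). FLVCR1, GLRX5 and NCOA4 rose by 0.73 to 1.08 on the log2 scale, and ALAS1, ALAD, HMOX2 and ACO1 by 0.25 to 0.41. The calls of ALAS1 and ALAD held in 1 of the 4 fits without a library. Under total-count scaling 4 of the 22 were higher and 13 lower. ALAS1, ALAD, HMOX2 and ACO1 were then not called (log2 fold changes of 0.0076 to 0.16, adjusted p of 0.0551 to 0.948).

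Genes of ribosome biogenesis were divided. Of 32, 13 fell, 6 rose and 13 did not pass (median -0.21), and the counts moved with single libraries. Without 0 h replicate 2, 8 fell and 7 rose, without 24 h replicate 1, 6 fell and 4 rose, and without 24 h replicate 2, 3 rose. FBL (fibrillarin), which methylates ribosomal RNA, had 195 and 271 CPM at 0 h and 86.2 and 95.4 CPM at 24 h, and NPM1 (nucleophosmin), the most abundant by CPM, fell 1.22-fold, a call that held in 1 of the 4 fits without a library. UTP20 and RRP12 rose by 0.87 and 0.86 on the log2 scale, and ODC1, GNL3, RRS1 and POLR1A by 0.25 to 0.45. The calls of RRS1 and POLR1A held in 1 of the 4 fits without a library, and GNL3 was not called without 24 h replicate 2 (adjusted p = 0.0996).

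Lysosomal genes rose more often than they fell. Of 33 listed, 32 were tested, 19 rose, 3 fell and 10 did not pass, with a median log2 fold change of 0.45. Without 0 h replicate 1, 17 rose and 5 fell. CTSL (cathepsin L) had 65.5 and 79.4 CPM at 0 h and 1636 and 1746 CPM at 24 h, the largest change of the list at 4.54 (SE 0.13). CD63, a membrane protein of lysosomes and platelet dense granules, had 152 and 189.9 CPM at 0 h and 835 and 886 CPM at 24 h, and CTSB (cathepsin B) rose 3.68-fold. TFEB, the factor known for driving lysosomal genes, rose 2.56-fold from 2.49 and 4.15 CPM. CTSD (log2 fold change 0.15) and LAMP1 (-0.20) did not pass. GAA, ASAH1 and HEXA fell (log2 fold changes of -1.83, -0.66 and -0.44), and HEXA was not called with counts scaled for transcript length (-0.25, adjusted p = 0.116). CTSD was called without 0 h replicate 2 (adjusted p = 0.042), and LAMP1 without 0 h replicate 1 (0.0162).

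Of 18 genes of antigen presentation on MHC class I, 12 were tested, and 6 rose, none fell and 6 did not pass, with 1 called lower without 0 h replicate 1. B2M, the shared light chain, had 234 and 234 CPM at 0 h and 476 and 496 CPM at 24 h, and HLA-E rose 1.85-fold. The classical class I genes are not judged here. CALR, the most abundant of the group by CPM, did not pass (log2 fold change 0.28), but did without 0 h replicate 2 or 24 h replicate 1 (adjusted p = 0.0393 and 0.0269).

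The BCL2 family also moved both ways, like the genes tested as a whole (31.7% higher and 26.6% lower). Of 17 listed, 15 were tested, 6 rose, 5 fell and 4 did not pass (median 0.04, or -0.21 under total-count scaling and -0.084 without 0 h replicate 1). MCL1, a short-lived survival protein, had 294 and 255 CPM at 0 h and 1353 and 1318 CPM at 24 h, and BCL2A1, another survival gene, rose from 3 reads to 2.36 and 2.43 CPM. BCL2 itself had 5.19 and 4.18 CPM at 0 h and 0.42 and 0.685 CPM at 24 h. BCL2L1, which encodes BCL-XL, did not pass (log2 fold change 0.04, SE 0.11). Of the pro-death genes, BAK1 rose 3.39-fold, BCL2L11 (BIM) 1.97-fold and BMF 5.3-fold, while BBC3 (PUMA) fell 3.37-fold. BID, PMAIP1 and BCL2L2 fell, with log2 fold changes of -0.42 to -0.89.

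Transcription factors of blood stem cells and lineages were evenly split, where 31.7% of all genes tested rose and 26.6% fell. Of 42 listed, 39 were tested, 15 rose, 17 fell and 7 did not pass, with a median of 0.00 (-0.24 under total-count scaling, and -0.050 to 0.075 without 1 library). GATA2, active in stem cells and early megakaryocytes, had 113 and 154 CPM at 0 h and 443 and 541 CPM at 24 h, and BACH2, a repressor that pairs with small MAF proteins, had 7.49 and 9.08 CPM at 0 h and 98.2 and 91.5 CPM at 24 h. KLF2, a factor of quiescent blood cells, rose 6.98-fold from 0.368 and 0.547 CPM. CBFB, the partner of RUNX factors, rose 2.9-fold, ZFPM1, the partner of GATA1, 2.18-fold and ETS1 2.48-fold. MYB, a factor of proliferating progenitors, had 241 and 249.6 CPM at 0 h and 108 and 113 CPM at 24 h. LDB1, which bridges GATA1 and TAL1 complexes, fell 2.45-fold, SOX6 3.42-fold and HES1 4.52-fold. STAT5A, which carries cytokine signals, fell 1.96-fold. SPI1, CEBPA, CEBPD, ID1, BCL11A, ETV6, IKZF1, MAFG, KLF3, ELF4, STAT5B and ZFPM2 fell, with log2 fold changes of -0.31 to -1.25. The calls of CEBPA, STAT5B and ZFPM2 held in at most 1 of the 4 fits without a library, and that of BCL11A was lost without 24 h replicate 2 (adjusted p = 0.0649).

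Several of these factors had been far lower at 6 h than at 24 h. Of all genes tested, 9943 (56.6%) differed between 24 h and 6 h, and 2633 (15%) between 48 h and 24 h. GATA1 averaged 131 CPM at 0 h, 9.64 CPM at 6 h and 84.3 CPM at 24 h (24 h against 6 h, log2 fold change 3.13, adjusted p = 1.04e-08). NFE2 averaged 89, 1.86 and 18.9 CPM at these times, and MYB 245, 26 and 111 CPM. Each stood between its 6 h and its 0 h level at 24 h.
BCL2L1, which showed no difference past the test between 24 h and 0 h, averaged 28.2 CPM at 6 h against 196 CPM at 0 h and 201 CPM at 24 h. LIN28B, an RNA-binding protein of fetal blood cells that also did not pass (log2 fold change -0.14, adjusted p = 0.432, and 0.0482 without 0 h replicate 2), averaged 13.5 CPM at 6 h against 92.3 CPM at 24 h. GFI1B, a repressor of both lineages, and MEIS1, a homeobox factor, stood above 0 h by 0.77 and 0.75, after 6 h levels of 5.57 and 3.92 CPM. The comparisons with 0 h, 6 h and 48 h share the 24 h libraries, so their values are set side by side only.

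**Figure D4:**
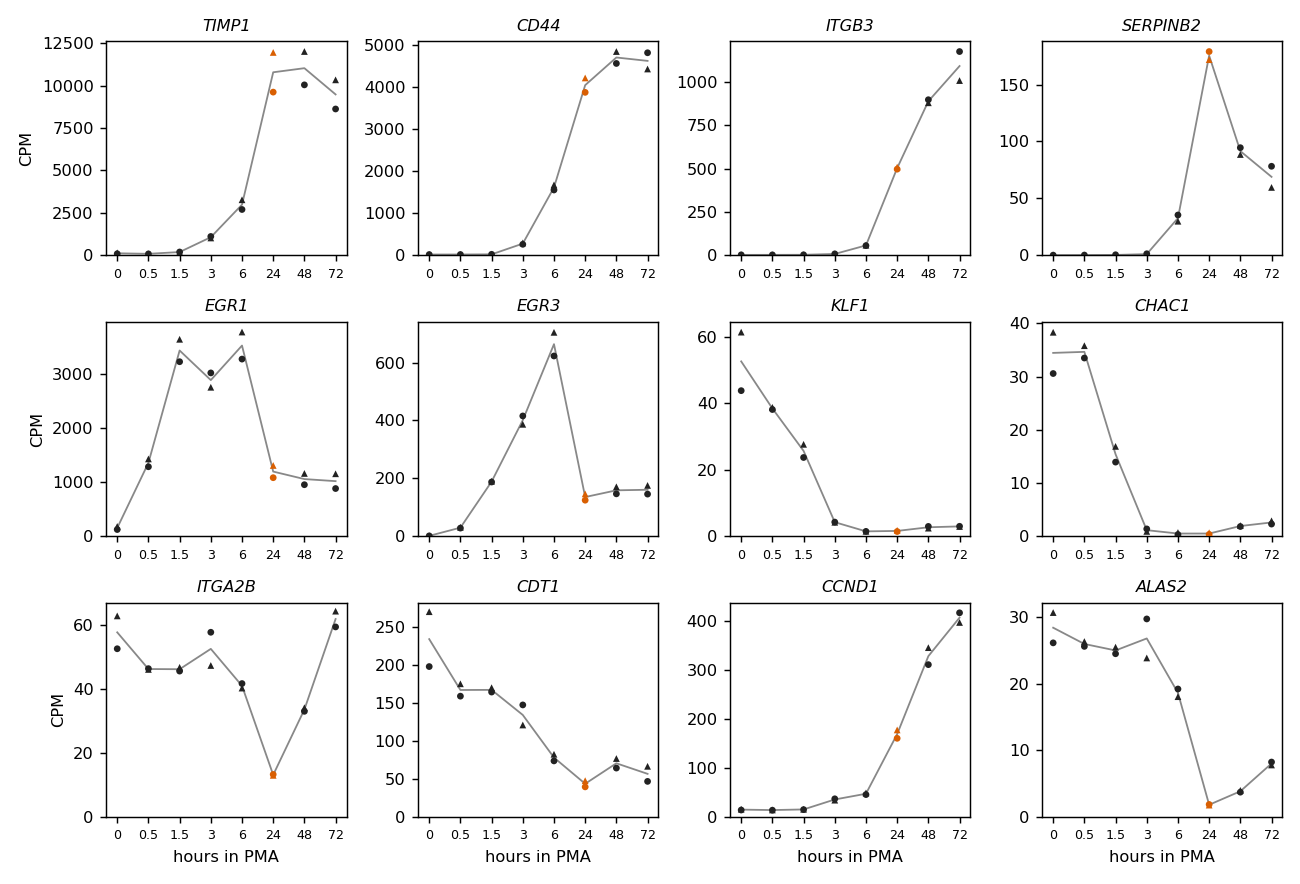
CPM of 12 genes at the 8 times of the series, from 0 to 72 h of PMA and evenly spaced on the axis, drawn with a circle for replicate 1, a triangle for replicate 2, a line through the means and the 24 h libraries in orange. At 24 h SERPINB2 is at its highest and ITGA2B at its lowest of the series, EGR1 and EGR3 are below their 6 h values, and CCND1 is higher again at 48 h.

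Markers of other cell types were examined for signs of other cells or programmes. Of 15 monocyte and macrophage markers, 14 were tested, 4 rose, 6 fell and 4 did not pass, and their summed level was 98.8 and 102.5 CPM at 0 h and 133 and 124 CPM at 24 h. ITGAX (CD11c) had 3.87 and 3.57 CPM at 0 h and 72.8 and 66.2 CPM at 24 h, and CSF1R, the macrophage growth factor receptor, had 4 reads at 0 h and 6.62 and 6.83 CPM at 24 h. FCER1G and VCAN also rose. LYZ (lysozyme), the most abundant at 0 h, had 72.4 and 72.3 CPM at 0 h and 36.5 and 34.5 CPM at 24 h, FCGR1A and CSF3R fell (log2 fold changes of -4.59 and -2.04), and CD14, the defining monocyte surface marker, stayed at or under 0.161 CPM in all 4 libraries.

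Of 12 fibroblast and endothelial markers, 8 were tested, 3 rose and none fell (1 fell without 24 h replicate 1), and their summed level went from 30.8 and 35.1 CPM to 150.2 and 149.9 CPM. COL1A1, a collagen I chain, accounted for most of that, with 3.1 and 3.83 CPM at 0 h and 108 and 109.7 CPM at 24 h. PDGFRB had 2 reads at 0 h and 5.00 and 5.62 CPM at 24 h, and PECAM1 did not pass. COL3A1, LUM, KDR and CLDN5 were under the filter. Lymphoid markers stayed low, with a sum of 15.4 and 19.0 CPM at 0 h and 23.1 and 24.1 CPM at 24 h. Of 13, 7 were tested, 5 rose and 1 fell, and 3 were called higher without 0 h replicate 1 or without 24 h replicate 2. CD79B rose from 5 reads to 1.17 CPM, and CD3D had 6.63 and 8.88 CPM at 0 h and 10.01 and 12 CPM at 24 h. The CD3D call was lost without 0 h replicate 1 or 24 h replicate 2 (adjusted p = 0.129 and 0.16). The part of these markers in the changes of the other groups was not tested.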

How the data were processed

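RNA from K562 cells was sequenced after ribosomal RNA depletion (16 libraries, 2 per time). Per the submitters' processing notes, reads were trimmed with Trim Galore 0.4.3 and quantified with Salmon. The notes name builds hg19 and hg38 without roles, and the annotation of the index is not given in the sources used here. Per the file headers, the deposited tables hold, for each transcript, estimated counts (NumReads) and TPM, both made by the authors with Salmon.

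Of 177456 transcripts, 167027 (94.1%) matched GENCODE v29 by identifier, and 3.23 to 3.75% of reads in the 4 libraries fell on unmatched ones, which were left out. Estimated counts were summed per gene, rounded and filtered with filterByExpr, which left 17559 genes. edgeR 4.0.16 (R 4.3.3) fitted all 16 libraries in 1 quasi-likelihood model with TMM scaling, and p-values are Benjamini-Hochberg adjusted over all genes tested, called under 0.05. Standard errors are from the fit, folds are ratios of mean CPM, and intervals cover counting error only. On simulated data, 100 genes changed 4-fold and 100 changed 2-fold, split evenly between rises and falls and with no GC trend. The fit recovered 99% and 77% of them among 17062 genes, with 5 false calls of 181. Far fewer genes changed there than the 10241 called in the data, so those false calls give no rate for these calls. Replicates differed by more than sampling noise.

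The members and gene lists were chosen with earlier results of these data known, so list counts and medians describe the listed genes and are not tests. Named genes are the 12 largest rises and falls by log2 fold change and the 6 by CPM, among called protein-coding genes at a mean of at least 5 CPM. From each list, the largest called change, the highest member by CPM and the members called against its median are named, and others as examples. Some genes that these rules pick are not reported here. Promoters are from RefSeq on GRCh38.p14, 250 bases before to 50 after the start. The alternatives were other scalings, filters, tests, count sources and sample sets, and each library left out.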

Additional observations from a re-analysis of the deposited data

How the results depend on the processing

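The counts of called genes over the whole table, in all, higher, lower and at 2-fold or more, stayed within 1.5 times their value under every alternative run except 1. Testing directly against a 2-fold change (glmTreat) left 2925 genes, where 4728 were called with an estimate of at least 2-fold. DESeq2 called 9664 genes, the 4 libraries alone 8785 and an adjusted p under 0.01 left 7960. Leaving out 1 library gave 8067 to 9461 calls, and 4310 to 4919 at 2-fold or more. With the replicate number as a block (replicate block) 10563 genes were called. With the GC trend of each library removed, 11147 were. In that fit MYC, CTSD, LAMP1, CALR and LIN28B, which did not pass, were called (adjusted p = 0.0481, 0.00247, 0.0253, 0.0251 and 0.016). The calls of MMP14 and CEBPA were lost in it (adjusted p = 0.064 and 0.0847). Deviations of same-numbered libraries correlated at r = 0.371 across genes. With only 2 numbers and no label for what they share, whether the libraries were paired cannot be told. The gap between full and effective transcript lengths was larger in replicate 2 than in replicate 1 at every time but 0 h. It was 213 and 233.6 bases in replicates 1 and 2 at 24 h, and 217.4 and 199.4 bases at 0 h. The median of the phorbol ester receptors, 0.12, became -0.13 under total-count scaling and -0.12 with length-scaled counts, and ranged from -0.10 to 0.15 without 1 library. The G1 median, 0.19, became -0.063 under total-count scaling, and RRM2 went from 0.83 to -0.037 with length-scaled counts. Other calls lost with length-scaled counts included EEF2, ITGA1, MEIS1 and FTH1 (adjusted p = 0.726, 0.682, 0.0558 and 0.0549). The cause was not tested. Of 295 called genes checked one by one, 255 stayed called in the same direction under every alternative fit that tested them, and 40 lost the call in some. A gene that a filter removed from a fit was not counted as lost there. The check did not include glmTreat or the cutoff of 0.01. Counts within lists moved more. Under total-count scaling the members called higher went from 8 to 4 for haem and iron, 7 to 4 for cholesterol, 6 to 3 for ribosome biogenesis and 5 to 3 for erythroid genes. With the 4 libraries alone they went from 5 to 2 for erythroid genes. With at least 10 reads in each library, cytokine members called higher went from 29 to 18. Depth limits mainly the genes with 0 to 3 reads at 0 h, whose fold is a bound or has a wide interval.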

Other observations

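In the MHC class I and platelet lists, 2 members with reads that differed widely between replicates gave calls that depended on the fit. TAP1, the peptide transporter of antigen presentation, had 10 and 0 reads at 0 h and 49 and 34 reads at 24 h, and did not pass (log2 fold change 2.81, SE 1.64), but was called with no low-count filter (adjusted p = 5.72e-07) and in the 4 libraries alone (0.0263). GP1BB, a chain of the platelet von Willebrand factor receptor that overlaps SEPTIN5, had 305 and 1066 reads at 0 h and 125 and 853 at 24 h, so that each pair of replicates spread more widely than the groups differed (log2 fold change -0.98, SE 1.18), and it was called only with no low-count filter (adjusted p = 2.01e-09).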
